A study of Mus musculus with 8 samples.

Results

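The 7 genes described here, Hsd3b5, Slco1a1, Cyp7b1, Cyp2d9, Cyp4a12b, Cyp4a12a and Elovl3, encode liver enzymes and 1 transporter that pulsatile growth hormone keeps high in male mouse liver. They were chosen by name, as 7 of the 24532 genes in the files, because of how they differed between MKRN1-null and wild-type (WT) liver. Their differences between the genotypes in liver are therefore a description, with no test.

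Male C57BL/6 mice, either MKRN1-null or WT, had been given a high-fat diet (HFD) from 6 weeks of age for 19 weeks, and the labels give an age of 24 weeks, which is less than these add up to. The paper's methods give a shorter HFD for its obesity experiments, so the length of the diet is uncertain. MKRN1 is an E3 ubiquitin ligase, and the null allele was carried in every cell of the animal rather than in hepatocytes alone. Poly(A) RNA was sequenced from the liver and subcutaneous fat, with 2 libraries for each genotype and tissue and no chow-fed group. Expression is given in FPKM, a value scaled to transcript length and library depth, which allows levels to be compared between genes. Differences are given on the scale of log2(FPKM + 1).

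In male mice growth hormone is released in separated pulses, whereas in females its release is nearly continuous. Each pulse acts through the growth hormone receptor and the kinase JAK2 to activate the transcription factor STAT5B in hepatocytes, and genes that follow the pulses are known for higher levels in male than in female liver. Genes that respond to continuous growth hormone show the opposite bias.

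Promoter sequence is shown for the 3 of the 7 genes that matched in the RefSeq table (build GRCm38.p6), since STAT5B acts at DNA. These 3 genes were all higher in both MKRN1-null livers than in both WT livers, as was Cyp7b1, which had no match there. Each sequence holds the 250 bases before the transcript start, 5′ to 3′ on the strand of the gene, for Cyp2d9 (chr15:82452127-82452376, plus strand), Hsd3b5 (chr3:98645535-98645784, minus strand) and Slco1a1 (chr6:141946963-141947212, minus strand). Capitals mark matches to the motifs that were searched.
Cyp2d9: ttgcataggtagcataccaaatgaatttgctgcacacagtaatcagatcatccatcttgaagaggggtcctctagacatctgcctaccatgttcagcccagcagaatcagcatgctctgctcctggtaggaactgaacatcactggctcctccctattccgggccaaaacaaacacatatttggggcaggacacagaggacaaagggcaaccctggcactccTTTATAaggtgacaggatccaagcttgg
Hsd3b5: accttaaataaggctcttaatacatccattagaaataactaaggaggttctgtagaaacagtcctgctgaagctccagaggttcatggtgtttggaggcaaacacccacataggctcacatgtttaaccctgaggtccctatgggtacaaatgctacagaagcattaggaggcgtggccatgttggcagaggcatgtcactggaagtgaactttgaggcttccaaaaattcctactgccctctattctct
Slco1a1: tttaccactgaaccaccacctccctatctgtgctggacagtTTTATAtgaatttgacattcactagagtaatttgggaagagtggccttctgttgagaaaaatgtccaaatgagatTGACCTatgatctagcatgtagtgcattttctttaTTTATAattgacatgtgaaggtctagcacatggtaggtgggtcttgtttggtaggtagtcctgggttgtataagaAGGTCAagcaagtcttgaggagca

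These motifs were searched on both strands in 300 bases, from 250 before to 50 after the start. The STAT5 motif TTCNNNGAA and its stricter form TTCCNGGAA, which lies within the first, had 0 matches in the 3 promoters, and 8.3% and 1.15% of all 32851 promoters of that length held them. The nuclear receptor half-site AGGTCA was found in the Slco1a1 promoter at positions -134 to -129, where it lies on the other strand as TGACCT, and at -24 to -19, with a match in 16.3% of all promoters. ATTGAT, a core of the motif of HNF6 and CUX2, had 0 matches in the 3 promoters and was held by 7.54% of all. TATAAA occurred on the other strand as TTTATA at -28 to -23 in Cyp2d9 and at -209 to -204 and -99 to -94 in Slco1a1, and was held by 13.6% of all promoters.

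Mkrn1, the deleted gene, had an FPKM of 9.42 and 10.1 in the WT livers and 2.86 and 2.21 in the null livers (log2 difference -1.61, SE 0.12, limma adjusted p = 0.00976). The livers held 6.05 to 7.46 gigabases of aligned sequence, the most in WT replicate 2 and the least in WT replicate 1. Coverage of transcripts and exons, given below, is not scaled to this depth, whereas FPKM is. Of 10822 genes tested in liver, 272 were higher (2.51%) and 1834 lower (16.9%) in null mice at an adjusted p under 0.05, and the median gene differed by -0.17. Median-of-ratios scaling brought this median to 0 and quantile normalization to 0.03, and the share of lower genes among those called changed from 87.1% to 64.6% and 61.3%. Both null livers were above both WT livers for 11.8% of tested genes and below both for 57.5%. With 2 libraries per genotype, each p measures only the spread between these samples.

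The WT livers differed in the genes described here more than in most others. WT replicate 1 was the lowest of the 4 livers for all 7 genes. All 7 were higher by at least 1 log2 unit in WT replicate 2 than in replicate 1, as were 76 of all tested genes (0.702%). The median difference between the WT livers was 3.01 over the 7 genes and -0.05 over all tested genes. All results below are thus given for each library.

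Hsd3b5, a steroid dehydrogenase family member that reduces ketosteroids in male liver, differed most between the genotypes. Its FPKM was 0.0415 and 2.25 in WT replicates 1 and 2 and 153 and 225 in null replicates 1 and 2. The lowest null liver was 68.0-fold above the highest WT liver. Mean coverage of its transcript was 0.251 in WT replicate 1, with 3 of its 4 exons at 0, and 16.8 in WT replicate 2, so that the 54.3-fold ratio between the WT livers rests on very few reads. In the null livers coverage was 963 and 1466, and each of the 4 exons was above both WT livers. The gene lies on the minus strand of chromosome 3 (mm10, 98618636 to 98645534, Entrez 15496) and has 1 transcript of 1607 bases in the files. Within the 7 Hsd3b genes, Hsd3b5 took 0.00968% and 0.385% of the summed FPKM in the WT livers, and 22.1% and 29.0% in the null livers. Hsd3b7, the most abundant relative in WT liver, had values of 339 and 455 in WT and 381 and 342 in null mice, which overlapped. Of the windows of 100 bases in the Hsd3b5 transcript, 7.79% occurred unchanged in another gene, Hsd3b4.

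Slco1a1, which encodes an uptake transporter for organic anions such as bile acids and steroid conjugates on the hepatocyte surface, was also apart. Its FPKM was 1.10 and 21.9 in WT and 96.1 and 96.2 in null livers. The null livers were nearly equal, whereas the WT livers differed 19.9-fold. The lowest null liver was 4.39-fold above the highest WT liver, and all 14 exons on chromosome 6 (mm10, 141907281 to 141946962, minus strand, Entrez 28248) had both null livers above both WT livers. Slco1a1 took 5.87% and 71.0% of the summed FPKM of 4 Slco1a genes in the WT livers, and 93.0% and 92.6% in the null livers. Its paralog Slco1a4 had 17.6 and 8.92 in WT and 7.25 and 7.64 in null livers. Slco1b2, another hepatocyte transporter of organic anions, had 305 and 299 in WT and 322 and 324 in null mice.

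Cyp7b1, an oxysterol hydroxylase of the alternative route of bile acid synthesis, had an FPKM of 15.4 and 34.0 in WT and 84.7 and 124 in null livers. All 6 exons were above both WT livers, and the lowest null liver was 2.49-fold above the highest WT liver. The gene spans 18071950 to 18243338 on the minus strand of chromosome 3 (mm10, Entrez 13123). Cyp7a1, the rate-limiting enzyme of the classic route, gave no such order. Its FPKM was 8.65 and 6.00 in WT and 2.80 and 11.8 in null livers, and its groups overlapped.

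Cyp2d9, a testosterone hydroxylase, was the most abundant of the 7 genes in every liver. Its FPKM was 368 and 805 in WT and 999 and 983 in null livers. The null livers were apart from WT by a small margin, since the lowest was 1.22-fold above the highest WT liver. All 9 exons on chromosome 15 (mm10, 82452377 to 82456827, plus strand, Entrez 13105) showed this order. Cyp2d9 took 22.5% of the summed FPKM of 9 Cyp2d genes in WT replicate 1, and 38.9%, 39.1% and 37.8% in WT replicate 2 and the null livers. Within this family its level thus set WT replicate 1 apart rather than the genotypes. Reads may have been divided with close copies, since 9.86% of the windows of 100 bases in its transcript occurred in other genes. Cyp2d26, the most abundant relative, had 635 and 589.8 in WT and 714 and 723 in null livers.

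**Figure D1:**
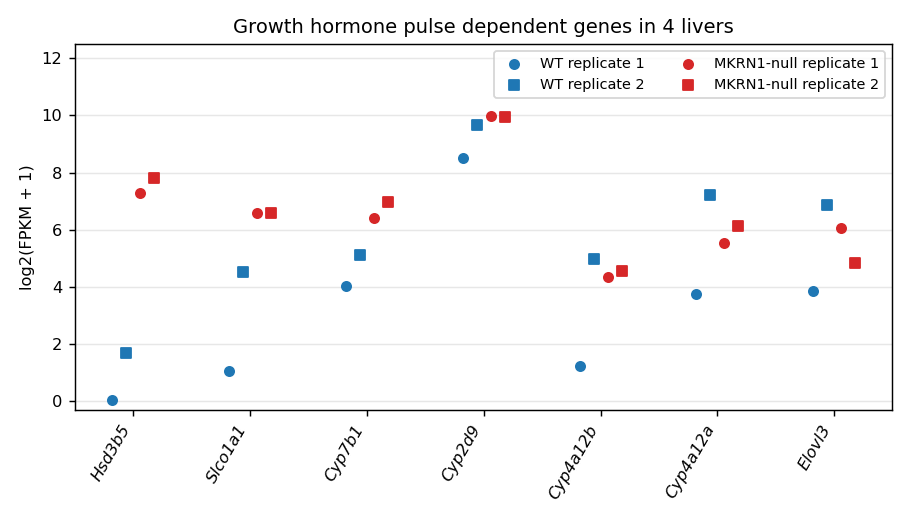
Level of the 7 genes, as log2(FPKM + 1), in each of the 4 livers (blue, WT; red, MKRN1-null; circles, replicate 1; squares, replicate 2). Both null livers lie above both WT livers for Hsd3b5, Slco1a1, Cyp7b1 and Cyp2d9, and WT replicate 2 is the highest for Cyp4a12b, Cyp4a12a and Elovl3.

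The other three genes overlapped between the genotypes and were highest in WT replicate 2. Cyp4a12a and Cyp4a12b encode near-identical fatty acid hydroxylases that act on arachidonic acid, and Elovl3 encodes an elongase of saturated and monounsaturated fatty acids. In these 3 genes the sign of the difference depended on which WT liver was used. The null mean was above WT replicate 1 by 2.08 for Cyp4a12a, 3.21 for Cyp4a12b and 1.60 for Elovl3. Against WT replicate 2 the difference was -1.38, -0.52 and -1.41.

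Cyp4a12a had an FPKM of 12.4 and 146 in WT and 45.1 and 68.5 in null livers. Cyp4a12b had 1.35 and 30.3 in WT and 19.2 and 22.5 in null livers. Both null livers thus lay between the WT livers for each gene. The genes lie on the plus strand of chromosome 4 (mm10), Cyp4a12a at 115299046 to 115332815 (Entrez 277753) and Cyp4a12b at 115411624 to 115439034 (Entrez 13118), with 12 exons each.

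Reads from Cyp4a12a and Cyp4a12b could not always be told apart. Of all windows of 100 bases in the Cyp4a12b transcript, 36.2% occurred unchanged in Cyp4a12a, so how the counting divided reads between them is uncertain. Summed over both genes, FPKM was 13.8 and 177 in WT and 64.2 and 91.0 in null livers, with the same order of libraries as Cyp4a12a alone. Cyp4a12b took 9.81% and 17.1% of this sum in WT and 29.8% and 24.8% in null livers, so its share was higher in both null livers than in both WT livers although neither gene was.

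This share varied along the transcript. At exon 3, Cyp4a12b coverage was 0% and 4.12% of the sum in WT and 26.7% and 14.8% in null livers. Exon 9 gave 1.88% and 4.80% in WT and 18.7% and 14.4% in null livers. At exon 11 the libraries lay closer together, with 33.9% and 36.9% in WT and 42.1% and 41.3% in null livers. Exon 1 was at 45.7% to 46.4% in 3 livers and at 0 in WT replicate 1, where Cyp4a12b exons 1 to 3 were all listed at 0. Both null livers were above both WT livers in coverage for 5 of the 12 Cyp4a12b exons and 0 of the 12 Cyp4a12a exons.

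**Figure D2:**
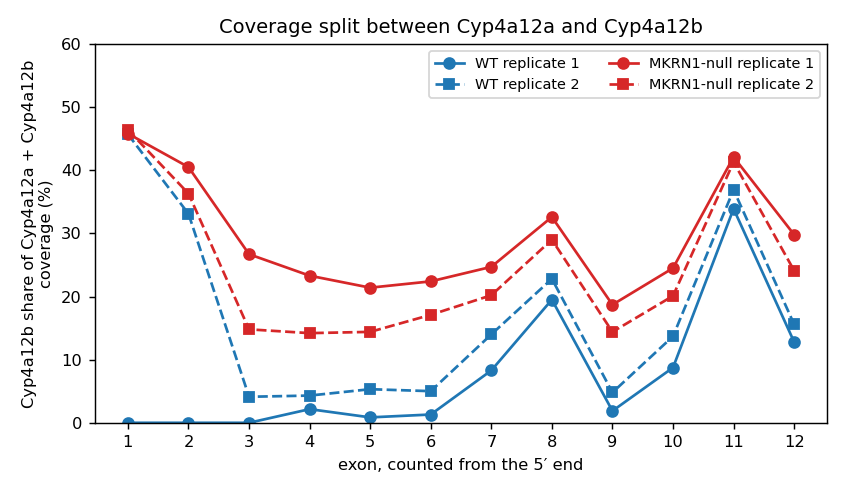
Share of Cyp4a12b in the summed coverage of Cyp4a12a and Cyp4a12b (percent, y axis) at each of their 12 exons counted from the 5′ end (x axis), with 1 line per liver. The null lines (red) lie above the WT lines (blue) at every exon, by little over WT replicate 2 at exon 1, with 26.7% and 14.8% against 0% and 4.12% at exon 3 and a smaller gap at exon 11.

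Elovl3 had an FPKM of 13.5 and 116 in WT and 66.6 and 27.4 in null livers. It was the only one of the 7 genes whose null livers differed by more than 1 log2 unit, with replicate 2 lower than replicate 1 by a difference of -1.25. None of its 4 exons on chromosome 19 (mm10, 46131899 to 46135694, plus strand, Entrez 12686) had both null livers above both WT livers. Its share of the summed FPKM of 7 Elovl genes was 2.36% in WT replicate 1, and 17.6%, 20.1% and 17.0% in WT replicate 2 and the null livers. Elovl5, the most abundant relative, had 343 and 452 in WT and 199.6 and 83.6 in null livers. Elovl6, which extends palmitate, fell from 28.4 and 21.3 to 8.56 and 8.36 (log2 difference -1.44, SE 0.15, limma adjusted p = 0.0137).

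Over the 7 genes, both null livers were above both WT livers in 4 (background 11.8%) and the groups overlapped in 3. The choice of the genes used this contrast, so nothing is read from that count. The median log2 difference over the 7 genes was 1.35, and it was 0.30 without WT replicate 1 and 2.66 without WT replicate 2. Every exon of every one of these genes had more coverage in WT replicate 2 than in WT replicate 1. Coverage is not scaled to depth, which was 7.46 gigabases in WT replicate 2 and 6.05 in replicate 1. By FPKM, which is scaled to depth, all 7 genes had the same order.

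**Figure D3:**
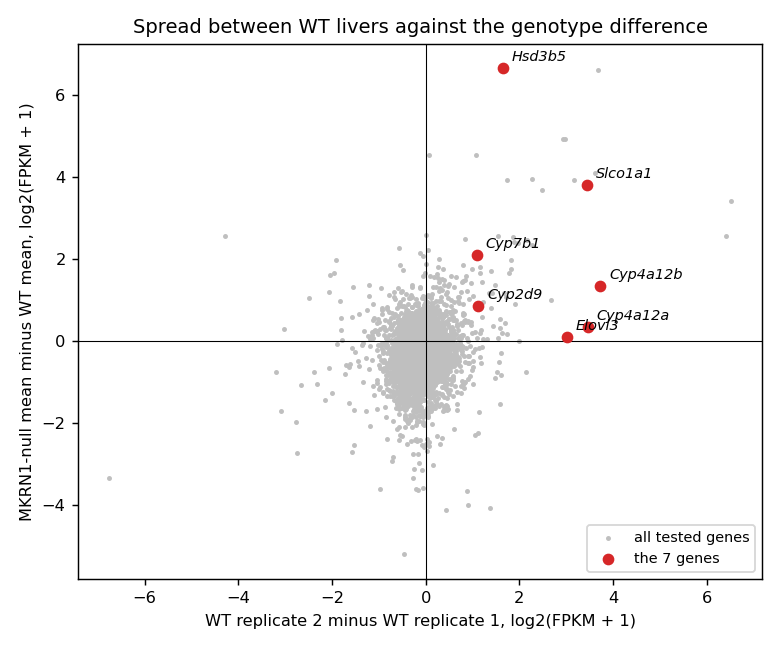
Difference between the WT livers (x axis, replicate 2 minus replicate 1) against the difference between the genotype means (y axis, MKRN1-null minus WT), both in log2(FPKM + 1), with 1 point per tested gene and the 7 genes in red. All 7 lie at least 1 unit to the right of 0 on the x axis, and Hsd3b5 reaches 6.66 on the y axis.

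The order of the 7 levels changed with genotype. In WT liver Cyp2d9 led with a mean of 587 ± 309 (SD, n = 2), apart from all the others. It was followed by Cyp4a12a (79.4 ± 94.7), Elovl3 (64.5 ± 72.1), Cyp7b1 (24.7 ± 13.1), Cyp4a12b (15.8 ± 20.4), Slco1a1 (11.5 ± 14.7) and Hsd3b5 (1.15 ± 1.57). Across the WT livers the range of each of these overlapped that of its neighbour in the list. Within each WT liver, however, Cyp7b1 was above Cyp4a12b, Cyp4a12b above Slco1a1 and Slco1a1 above Hsd3b5. The order of Cyp4a12a, Elovl3 and Cyp7b1 was reversed between the WT livers. In null liver Cyp2d9 (991 ± 11.3) was followed by Hsd3b5 (189 ± 50.4), which stood apart from Cyp7b1 (104 ± 28.0) and Slco1a1 (96.1 ± 0.104). Cyp7b1 and Slco1a1 did not differ beyond their spread, and neither did Cyp4a12a (56.8 ± 16.6) and Elovl3 (47.0 ± 27.8), and Cyp4a12b (20.9 ± 2.38) was the lowest.

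In subcutaneous fat the 7 genes were scarce. Elovl3, which adipocytes also express, was the only one above an FPKM of 1, with 1.31 and 2.18 in WT and 0.970 and 0.779 in null mice. Cyp7b1 had 0.533 and 0.435 in WT and 0.419 and 0.0446 in null mice. Cyp2d9 was listed at 0 and 0.0874 in WT and at 0 and 0.229 in null mice. Hsd3b5 and Slco1a1 were above 0 in null replicate 2 alone, at 0.0549 and 0.0133, and both Cyp4a12 genes were listed at 0 in all 4 fat libraries.

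The genes whose profile over the 4 livers was most like the median profile of the 7 genes were Serpina3k, Egfr, Mup6, Mup21, Mup10, C6, Scara5 and Mup3, with a mean absolute difference of 0.16 to 0.28 log2 units from it. That profile, the median over the 7 genes after each was centred on its own mean, was -1.90 and 0.13 in the WT livers and 0.67 and 0.78 in the null livers. Serpina3k, a secreted serine protease inhibitor, had the smallest difference, with an FPKM of 1294 and 3594 in WT and 5581 and 5643 in null livers. Egfr, the epidermal growth factor receptor, had 13.4 and 50.0 in WT and 84.9 and 133 in null livers. The major urinary protein Mup10, a pheromone carrier of male mice, had 723 and 2298 in WT and 2846 and 2996 in null livers. The low WT replicate 1 that all 3 shared with the 7 genes follows from their choice by this profile. By the same measure, Cyp2d9 (0.38), Cyp7b1 (0.40), Cyp4a12b (0.45), Cyp4a12a (0.63) and Elovl3 (0.76) lay closer to their own median profile than did Slco1a1 (1.10) and Hsd3b5 (2.52).

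Other genes known for a male bias in liver were also mostly higher in null liver. Of 15 tested genes of that list, 7 rose in null liver (2.51% of all tested genes did) and 0 fell by limma (16.9%). At an unadjusted p under 0.05 by limma, 13 rose and 0 fell, where 4278 of all 10822 tested genes passed in either direction. The median difference was 1.22 against -0.17 over all tested genes. Susd4, a membrane regulator of complement, rose from 1.80 and 2.34 to 9.69 and 10.0 (log2 difference 1.83, SE 0.12, limma adjusted p = 0.00851). Serpina1e, a secreted protease inhibitor, rose from 551 and 981 to 3585 and 4777 (2.49, SE 0.31, limma adjusted p = 0.0169). Obp2a, an odorant-binding protein, rose from 0.230 and 0.491 to 2.45 and 3.02 (1.46, SE 0.15, limma adjusted p = 0.0135). Obp2a passed the filter on low values only through the null livers, so its rise is a description. The others that rose were Keg1 (1.44), Nat8 (0.98), Nox4 (0.74) and Cyp2u1 (0.69), of which Keg1 and Cyp2u1 did not pass after quantile normalization (limma adjusted p = 0.0551 and 0.0507). Both null livers were above both WT livers for 14 of the 15 (11.8% of all tested genes). The exception was Ugt2b38, a glucuronosyltransferase, with a difference of 0.02. The gene lists were chosen with earlier results of these data known, so these counts are no independent support. Selenbp2 (2.57, limma adjusted p = 0.0503) and Egfr (1.98, limma adjusted p = 0.0869) had differences of similar size that did not pass.

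These male-biased genes shared the order of the WT livers with the 7 genes, since 14 of the 15 were higher in WT replicate 2 than in replicate 1, by a median of 0.77. Counts of rises depended on single libraries, and so did the count of called genes over all tested genes, which is given at the end.

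Of 15 tested genes known for a female bias in liver, 5 fell (16.9% of all tested genes did) and 1 rose (2.51%). Both null livers were below both WT livers for 8 of them (57.5% of all tested genes) and above for 3 (11.8%), so that most of the list being lower was also the case for all genes. The median difference was -0.76, against -0.17 over all tested genes. Cyp3a44, a steroid-metabolising P450, fell from 4.52 and 4.83 to 0.0114 and 0.0532 (log2 difference -2.46, SE 0.10, limma adjusted p = 0.00365). Cyp2b9, another P450, fell from 149 and 49.2 to 11.2 and 13.4 (-2.71, SE 0.52, limma adjusted p = 0.0323). Slc22a27, an organic anion transporter (-2.39), Ntrk2, a neurotrophin receptor (-1.94), and Abcd2, a peroxisomal fatty acid transporter (-1.32), also fell. Cyp3a44, Slc22a27 and Ntrk2 were under an FPKM of 1 in both null livers. They entered the test only through the WT livers, where they were high, so their falls are a description. Cyp2c40 rose by 0.66 (limma adjusted p = 0.023). Abcd2 did not pass after median-of-ratios scaling (limma adjusted p = 0.0829), nor Cyp2b9 after quantile normalization (limma adjusted p = 0.0592). Reads of close copies in the Cyp2b, Cyp2c, Cyp3a, Serpina1 and Mup families may have been divided between genes by the counting, so their single values are uncertain.

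In WT livers 13 of these 15 female-biased genes were lower in replicate 2 than in replicate 1, the reverse of the 7 genes, with a median of -0.75. Cyp2b13, a P450, had 18.9 and 1.98 in WT and 0.213 and 0.103 in null livers (-2.73, limma adjusted p = 0.0918). Like Cyp3a44, Slc22a27 and Ntrk2, Cyp2b13 passed the filter on low values only through the WT livers, so its lower level is a description. Cyp2a4, a steroid hydroxylase, was high in WT replicate 1 alone, with 49.9 and 4.55 in WT and 8.26 and 9.70 in null livers. How many female-biased genes changed also depended on single libraries, as the count over all tested genes did. Of the 31 genes of the list, 16 were below the filter on low values, among them Cux2, a repressor of male-biased genes in female liver, at 0.0873 and 0.0159 in WT and 0.0186 and 0.0177 in null livers.

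**Figure D4:**
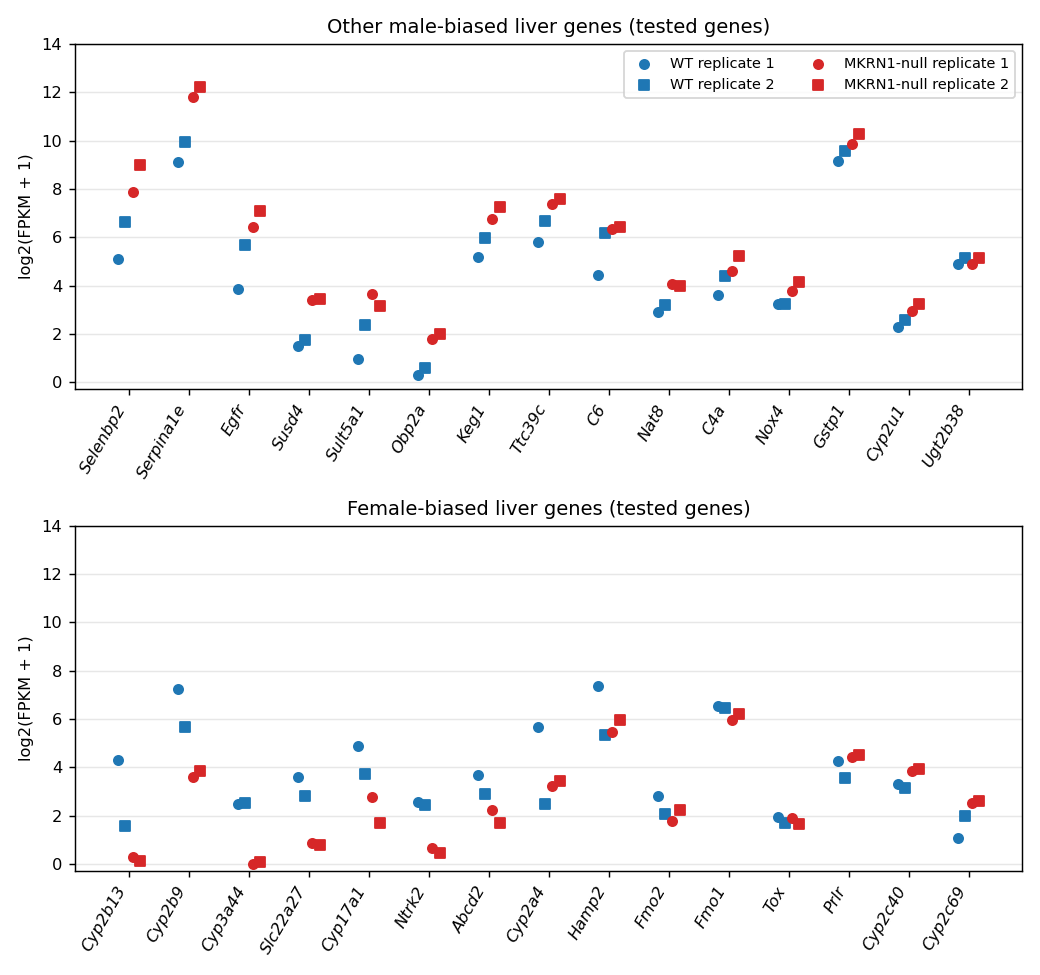
Levels of the 15 tested male-biased genes (upper panel) and the 15 tested female-biased genes (lower panel), as log2(FPKM + 1), in each liver (blue, WT; red, MKRN1-null; circles, replicate 1; squares, replicate 2). WT replicate 2 lies above WT replicate 1 for 14 of the 15 upper genes and below it for 13 of the 15 lower genes.

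The receptor and transducers upstream of the 7 genes gave small differences. Of 10 tested genes of growth hormone signalling, 2 rose (2.51% of all tested genes did) and 2 fell (16.9%), with a median difference of -0.06. Ghr, the receptor, had 172 and 184 in WT and 154 and 208 in null livers (0.01, limma adjusted p = 0.974). Stat5b, the main transducer of the pulses, had 13.6 and 13.0 in WT and 11.8 and 10.3 in null livers (-0.25, limma adjusted p = 0.135), and Jak2 differed by -0.39 (limma adjusted p = 0.116). Stat5a fell by 0.52 on the log2 scale (limma adjusted p = 0.0494), which did not hold after median-of-ratios scaling (limma adjusted p = 0.155) or quantile normalization (limma adjusted p = 0.191).

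Feedback inhibitors and hormone targets differed in both directions. Socs2, an inhibitor that STAT5B induces, had 3.02 and 7.11 in WT and 8.19 and 15.7 in null livers (1.12, limma adjusted p = 0.13), so that WT replicate 1 was the lowest here too. Cish, another such inhibitor, differed by -0.13, and its groups overlapped. Socs3 rose by 0.43 (limma adjusted p = 0.0369). Igf1, the circulating growth factor that growth hormone induces, rose from 45.2 and 44.6 to 56.9 and 68.0 (0.46, SE 0.11, limma adjusted p = 0.0488), and had an adjusted p of 0.0542 by limma after quantile normalization. Unlike the 7 genes, Igf1 hardly differed between the WT livers. Igfals, which carries IGF1 in blood, differed by 0.85 (limma adjusted p = 0.0729), and Igfbp3 fell by 0.49 (limma adjusted p = 0.0416), which was lost after median-of-ratios scaling (limma adjusted p = 0.123). The count of changed genes in this list fell when any single liver was left out, as the count over all tested genes did.

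Of 21 tested transcriptional regulators of liver genes, 2 rose and 0 fell by limma (5 and 0 at an unadjusted p under 0.05), where 2.51% of all tested genes rose and 16.9% fell. The unadjusted p was under 0.05 by limma in 4278 of all 10822 tested genes in either direction, a larger share than among these regulators. Hnf4a, a nuclear receptor that many male-biased genes need, rose from 112 and 97.5 to 145 and 158 (log2 difference 0.53, SE 0.11, limma adjusted p = 0.0355). Nr1d1, a repressor of the circadian clock, rose by 0.77 (limma adjusted p = 0.0264). Bcl6, a repressor of female-biased genes, had 4.47 and 6.67 in WT and 24.8 and 9.73 in null livers (1.36, limma adjusted p = 0.0923), again with WT replicate 1 the lowest. Onecut1, which encodes HNF6, had 1.95 and 4.75 in WT and 2.16 and 8.40 in null livers, and its groups overlapped. The count of changed regulators fell when either null liver was left out, as the count over all tested genes did.

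Of 27 tested relatives from the same families as the 7 genes, 4 rose (2.51% of all tested genes did) and 2 fell (16.9%), with a median of -0.06 against -0.17 over all tested genes. Those that rose were Cyp2d13 (0.91, limma adjusted p = 0.0182), Hsd3b2 (0.89, limma adjusted p = 0.0425), the prostaglandin transporter Slco2a1 (0.83, limma adjusted p = 0.0399) and Cyp2d22 (0.37, limma adjusted p = 0.0361). Hsd3b2 did not pass after quantile normalization (limma adjusted p = 0.0521). Elovl1, an elongase of very long fatty acids, fell with Elovl6, by 0.64. Cyp4a10, a target of PPARα, had 145 and 120 in WT and 143 and 111 in null livers, and Cyp4a14, the most abundant Cyp4a relative in WT replicate 1, had 230 and 116 in WT and 158 and 67.2 in null livers. The count of changed relatives fell when WT replicate 1 or either null liver was left out, as the count over all tested genes did.

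Clock genes set WT replicate 2, in which all 7 genes were higher than in WT replicate 1, apart from the other three livers. It was the highest or the lowest of the 4 livers for 16 of 17 clock genes (94.1%) and for 44.3% of all tested genes. Arntl, the positive arm of the clock, had 0.871 and 4.21 in WT and 1.01 and 0.403 in null livers. Dbp, an output of the clock, had 83.2 and 19.1 in WT and 84.6 and 103 in null livers. Bhlhe41 had 0.442 and 0.144 in WT and 1.86 and 1.49 in null livers. It passed the filter on low values only through the null livers, so its rise is a description. Of 16 tested clock genes, 2 rose in null liver (2.51% of all tested genes did), Bhlhe41 (1.06, limma adjusted p = 0.0215) and Nr1d1. The count of changed clock genes rose when WT replicate 1 was left out, whereas the count over all tested genes fell. Both counts fell when either null liver was left out. The part of the clock difference of WT replicate 2 in the values of Elovl3, Cyp4a12a and Cyp4a12b, which were highest in WT replicate 2, was not tested.

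**Figure D5:**
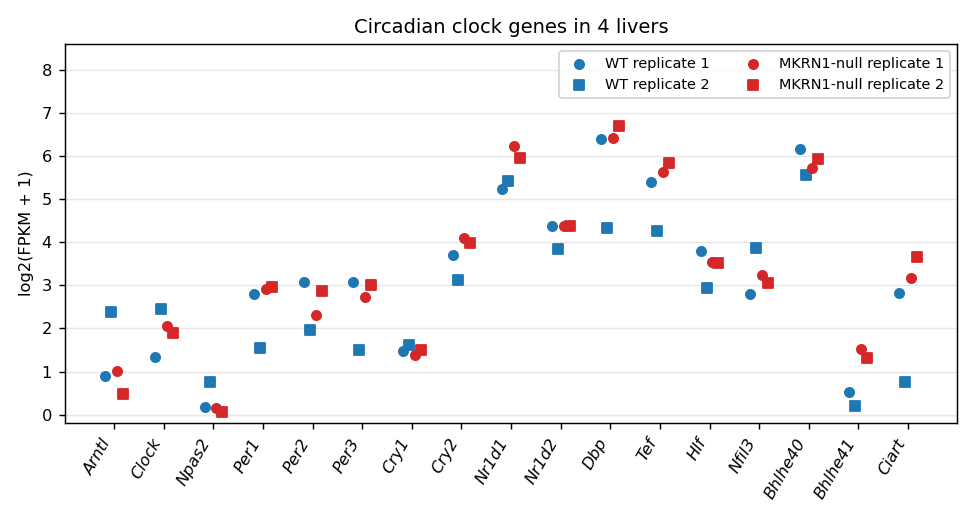
Levels of 17 clock genes, as log2(FPKM + 1), in each liver (blue, WT; red, MKRN1-null; circles, replicate 1; squares, replicate 2). WT replicate 2 is high for Arntl, at an FPKM of 4.21, and low for Dbp, at 19.1, compared with the other livers.

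Some markers of other cell types and most acute phase genes also differed between the genotypes. Hepatocyte markers were abundant throughout, with a summed FPKM of 59763 and 53589.6 in WT and 64809 and 66494 in null livers. Of the 8 analysed, 3 were higher and 1 lower, where 2.51% of all tested genes were higher and 16.9% lower. Bile duct markers summed to 252 and 209 in WT and 37.7 and 32.1 in null livers, with 4 of 5 lower (16.9% of all tested genes were). Spp1 alone gave 242 and 201 in WT and 34.4 and 29.7 in null livers, so the sum was mainly this gene. Krt19, Krt7 and Epcam were under an FPKM of 1 in both null livers and passed the filter only through WT. Sox9 overlapped between the genotypes. Stellate cell markers summed to 76.8 and 53.8 in WT and 17.5 and 18.0 in null livers, with 4 of 6 lower (16.9% of all tested genes were). The collagens Col1a1, Col1a2 and Col3a1 held most of this sum in WT livers. Lrat overlapped between the genotypes, and Reln was not called (limma adjusted p = 0.0954). The bile duct and stellate sums were also lower in WT replicate 2 than in replicate 1.

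Kupffer cell and macrophage markers summed to 150.3 and 65.5 in WT and 80.6 and 82.8 in null livers, and all 7 were lower in WT replicate 2 than in replicate 1. By limma 0 of 7 were called, where 19.5% of all tested genes were, in either direction. At an unadjusted p under 0.05 by limma 2 were lower, where 4278 of all 10822 tested genes passed in either direction. Endothelial markers summed to 96.5 and 59.9 in WT and 47.3 and 59.8 in null livers, with 1 of 6 lower (16.9% of all tested genes were). In the bile duct, stellate, Kupffer and endothelial lists alike WT replicate 1, the lowest liver for the 7 genes, had the highest sum. Adipocyte markers were near 0 (Adipoq at 0.148 to 0.225) apart from Cfd (5.50 to 23.5), and skeletal muscle markers summed to 6.78 to 8.84.

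Of 12 acute phase genes 8 fell and 0 rose by limma (9 and 0 at an unadjusted p under 0.05), where 16.9% of all tested genes fell and 2.51% rose. The unadjusted p was under 0.05 by limma in 4278 of all 10822 tested genes in either direction. Among the acute phase genes that fell were Orm2 (-2.41, limma adjusted p = 0.00312), Lcn2 (-3.34, limma adjusted p = 0.0137), Saa2 (-2.98, limma adjusted p = 0.0169) and Saa1 (-2.57, limma adjusted p = 0.0135). Saa1 was nearly equal in the WT livers, at 284 and 277, unlike the 7 genes. Fewer acute phase genes fell when WT replicate 1 or either null liver was left out, as was the case over all tested genes. The part of these markers and genes in the values of the 7 genes was not tested. In bulk liver fewer cells of a type and less RNA per cell cannot be told apart.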

How the data were processed

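Liver and subcutaneous fat RNA from male HFD-fed mice made up 8 libraries. For each, the authors deposited a file with the coverage, FPKM and TPM of every transcript, which the submitters' processing notes tie to HISAT2, SAMtools and StringTie 1.3.3b with genome mm10. No HISAT2 or SAMtools version is stated in the labels, notes or file headers. The paper's methods describe another pipeline, with TopHat2, Cufflinks and HTSeq. The deposited FPKM are scaled to the depth of each library alone, and no read counts were analysed.

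Here the FPKM of the 36780 transcripts were added up per gene (24462 genes with a symbol, 70 without), then transformed to log2(FPKM + 1). Testing in liver required an FPKM of 1 or more in 2 or more of the 4 livers, a filter that all 7 genes passed. The 4 livers were fitted with limma 3.58.1 in R 4.3.3 (eBayes with trend), with Benjamini-Hochberg adjustment across the 10822 tested genes. The procedure was tested on simulated data. Depth was taken as coverage divided by FPKM, and limits the precision of scarce transcripts. Other work used pandas 2.3.3, numpy 2.4.6 and matplotlib 3.10.9 under Python 3.11.15.

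The 7 genes and the gene lists were chosen with earlier results of these data known. Named genes are the 7, Mkrn1, up to 6 called genes of each list with the largest difference, set regulators, signalling and clock genes, the most abundant family relatives, and the 8 genes with a profile most like the 7. Selenbp2, Egfr, Ugt2b38, Cyp2b13, Cyp2a4, Slco1a4, Cyp7a1, Cyp4a10, Cyp2u1 and single markers were named in addition, after their values were seen. Some regulators covered by this rule are not reported here. Alternatives were TPM, a pseudocount of 0.1, a minimum FPKM of 5 or no filter, quantile normalization or median-of-ratios scaling, a fit of all 8 libraries, a fit with no trend, a replicate block, and the omission of each liver in turn.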

Additional observations from a re-analysis of the deposited data

Results flagged for a closer look

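Cyp7b1 differed in opposite directions in the 2 tissues, in every library. Both null livers were above both WT livers, with a log2 difference of 2.11, whereas both null fat libraries were below both WT fat libraries, with a difference of -0.28. The fat values were all under an FPKM of 1. Null replicate 1 (0.419) was barely below WT replicate 2 (0.435), and only null replicate 2 (0.0446) was clearly lower. The difference between the tissues was not tested.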

How the results depend on the processing

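With 2 livers per genotype, the counts of called genes depended on single libraries and on settings. Of 2106 genes called in liver (272 higher, 1834 lower), 1276 were called at a minimum FPKM of 5, 1244 after median-of-ratios scaling (440 higher, 804 lower), 1040 after quantile normalization (402 higher, 638 lower), 227 with all 8 libraries in one fit, and 55 to 1880 with 1 liver left out, where the lone liver is assumed to vary like the other group. Male-biased genes called (7) were 4 with 8 libraries in one fit and 0 to 11 with 1 liver left out. Female-biased genes called (6) were 3 at a minimum FPKM of 5 and 2 to 11 with 1 liver left out. Growth hormone signalling genes called (4) were 0 with no filter, 1 at a minimum FPKM of 5, 2 after median-of-ratios scaling, 1 after quantile normalization, 0 with 8 libraries, 2 with no trend and 0 to 1 with 1 liver left out. Regulators called (2) were 1 with no filter, 4 after median-of-ratios scaling, 0 with 8 libraries and 0 to 2 with 1 liver left out. Family relatives called (6) were 2 with 8 libraries and 0 to 9 with 1 liver left out. Clock genes called (2) were 1 at a minimum FPKM of 5, 0 with 8 libraries and 0 to 9 with 1 liver left out, and acute phase genes called (8) were 4 to 9. The median difference of the 7 genes (1.35) was 0.30 to 2.66 with 1 liver left out, and that of Hsd3b5 (6.66) was 8.33 with a pseudocount of 0.1. The cause of these shifts was not tested, apart from fewer genes or livers in the fit.

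The replicate numbers were not taken as pairs, since same-numbered livers came from different mice. Their deviations from the group means correlated at 0.007 over all tested genes, which cannot exclude a batch shared by number in some genes. With the replicate number as a block, 1493 genes were called in liver, 12 male-biased, 1 growth hormone signalling gene and 1 regulator.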
